A study of Mus musculus with 12 samples.

Results

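The 28 genes described here encode receptors for the inhibitory transmitter GABA, the enzymes and transporters that make and remove GABA, and the genes by which inhibitory neurons are recognised. They were taken by name from a fixed list of symbols, which was chosen with earlier results of these data known. All 28 were found among the 14663 named genes of the hippocampus table and among the 29957 named genes of the microglia table. The study measured RNA in C57BL/6 mice, with no genetic change or treatment given in the labels. Its 12 samples formed 4 groups of 3: whole hippocampus at 6 months, called mature, and at 18 months, called aged, and microglia of the hippocampus at 3 months, called young, and at 24 months, called old. The age steps of the 2 tissues differ and the tables were normalized separately, so levels were compared only within a tissue. The labels do not say whether the replicates came from separate mice or pools, nor the sex of the mice, so the tests measure only the spread between these samples. They also do not state how the microglia were isolated.

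GABA opens chloride channels built of 5 GABA-A receptor subunits, in which the alpha subunit sets much of the receptor's kinetics, location and drug sensitivity, and it acts more slowly through the G protein-coupled GABA-B receptor. In the hippocampus GABA is released by a minority of neurons, the interneurons, which fall into classes marked by parvalbumin, somatostatin, vasoactive intestinal peptide, cholecystokinin or reelin. Microglia, the resident macrophages of the brain, are not GABA-releasing cells.

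None of the 28 genes passed the test between 6 and 18 months in the hippocampus. The genes that define GABA release, led by Gad1, had groups that overlapped. The GABA-A subunit gene Gabra2 and the interneuron gene Reln were lower in all 3 libraries at 18 months than in any at 6 months. Gabra3 and Calb2 were higher in all 3 libraries at 18 months. The test was limma's moderated test on log2(normalized count + 1) over 13491 genes, and it called 0 genes (0%) at an adjusted p under 0.05. At an unadjusted p under 0.05 limma gave 725 genes, 5.37% of those tested, of which 2.13% of all tested genes were higher at 18 months and 3.24% lower. Among the 28 genes 4 met that unadjusted threshold, with Gabra2, Reln and Lhx6 lower and Calb2 higher, and their adjusted p values were between 0.877 and 0.909. Groups that did not overlap were seen for 5.03% of all tested genes in the higher direction and 5.93% in the lower, and for 2 of the 28 genes in each direction. The log2 change was above 0 for 17 genes and below 0 for 11, with a median of 0.14 beside -0.04 for all tested genes. By arithmetic means 18 genes were higher and 10 lower, since Cck lay close to 0 on either scale. Of the 24 genes that did not meet the unadjusted threshold, Gabra3, Gabra4, Gabra5 and Sst met it when a particular library was left out. In the authors' deposited table, 36 of 11818 genes with an adjusted p (0.305%) were under 0.05, and 948 of 14661 (6.47%) had an unadjusted p under 0.05. None of the 28 was among the 36.

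**Figure D1:**
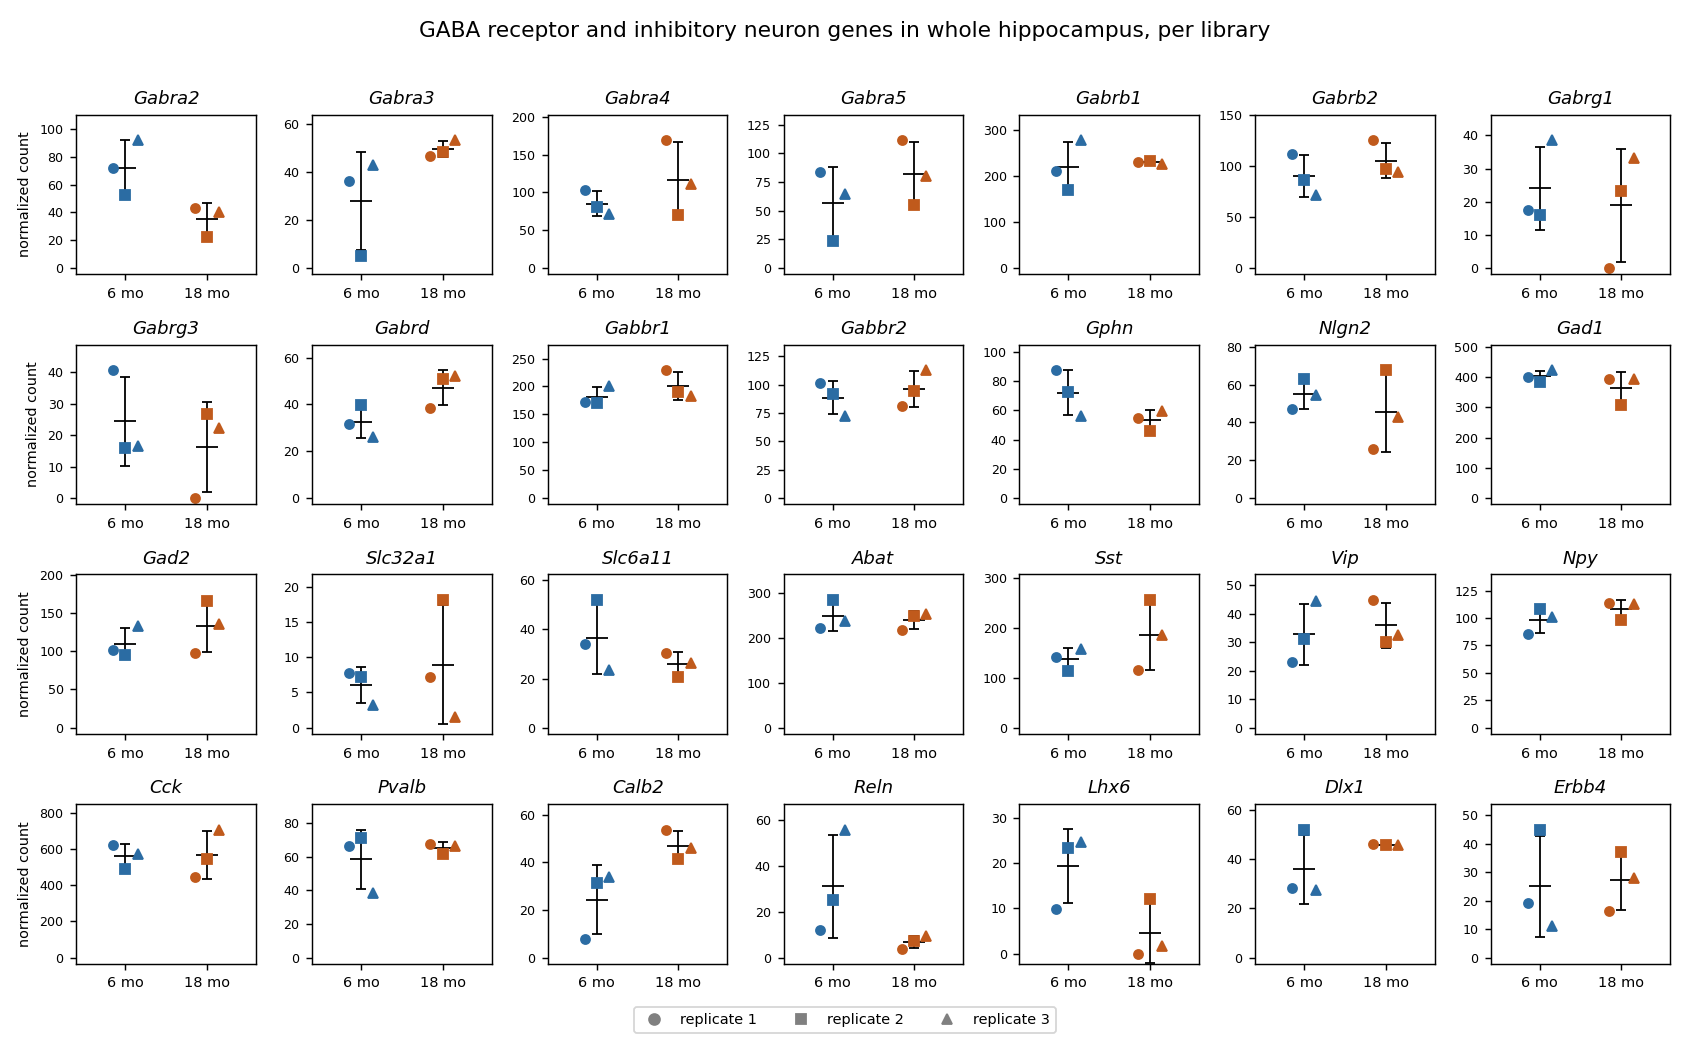
Normalized count (vertical axis, linear, arbitrary units set by the authors' scaling) of each of the 28 genes in the 3 libraries at 6 months (blue) and 18 months (orange); horizontal bars are means and error bars SD, and symbols give the replicate number. Gabra2 and Reln lie lower in all 3 libraries at 18 months, Gabra3 and Calb2 lie higher, and the other panels overlap.

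The hippocampus libraries held the markers of hippocampal principal neurons. These 8 markers summed to 892 to 1053 at 6 months and 938 to 1134 at 18 months. The summed level of 12 pan-neuronal markers was 9661 to 10519 at 6 months and 9742 to 10238 at 18 months, so total neuronal signal overlapped. The 8 excitatory neuron markers summed to 7683 to 8940 at 6 months and 9170 to 9921 at 18 months, but 91.0% of that sum was Camk2a. Without Camk2a the other 7 summed to 751 to 953 and then 712 to 861, which overlapped, and Slc17a7, the vesicular glutamate transporter, was lower in all 3 libraries at 18 months (173, 166 and 160, then 124, 139 and 137). A set of 9 microglia markers summed to 413 to 544 and then 522 to 620, which overlapped. The 5 red blood cell genes summed to 39.3 to 57.5 and then 104 to 324, and did not overlap without their leading gene Hba-a2 (26.5 to 37.1 and then 62.2 to 193). The 7 oligodendrocyte precursor markers overlapped, at 255 to 299 and then 196 to 256, and without Olig1 did not, at 115 to 143 at 6 months and lower in all 3 libraries at 18 months, from 39.9. The choroid plexus and ependyma sum, 95.3% of it Ttr, ranged from 129.5 to 6911 at 6 months and from 248.5 to 10883 at 18 months, highest in replicate 2 at each age. The 5 striatum markers summed to 112, 252 and 141 in replicates 1 to 3 at 6 months and 153 to 205 at 18 months. The 6 thalamus and habenula markers summed to 74.2, 179 and 72.1 and then 74.9 to 163. Both sums overlapped between the ages, and replicate 2 was highest at 6 months. No marker of these lists was at 0 in all libraries. The part of any of these cells or regions in the results below was not tested. In whole tissue, fewer cells of a type and less RNA per cell cannot be told apart. Normalized counts are not reads, but the smallest repeated values put 1 read at about 0.517 to 1.795 units, which gives roughly 548938 to 1936405 reads per library. Only 41.4% to 55.8% of low values were whole multiples of that step within 0.1, so read numbers below are approximate. They are also not scaled for depth, which was about 550830 to 1936405 reads per library at 6 months and 548938 to 1293328 at 18 months. The shallowest libraries were replicate 2 at 6 months and replicate 1 at 18 months.

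The 4 alpha subunits on the list differed in the direction of their means. Gabra2 encodes the alpha 2 subunit, which is known for receptors on the initial segment of the axon of principal neurons. Its normalized counts were 72.1, 52.5 and 91.6 in replicates 1 to 3 at 6 months and 43.1, 22.7 and 40.4 at 18 months. Every library at 18 months was below every library at 6 months, and the means were 72.1 ± 19.6 and 35.4 ± 11.1 (SD, n = 3 each), the latter 49.1% of the former. The log2 change was -1.02 ± 0.37 (SE), with a 95% interval of 0.284-fold to 0.853-fold, an unadjusted p of 0.0152 and an adjusted p of 0.877 by limma. Leaving out any 1 library gave log2 changes from -1.23 to -0.74, and leaving out replicate 2 of both ages, the libraries with the most choroid plexus signal, gave -0.95. The unadjusted p was not under 0.05 in 2 of the 6 leave-outs, without replicate 3 at 6 months (0.0922) and without replicate 2 at 18 months (0.0575). The gene lies on the minus strand at chr5:70957597-71095849 in the GENCODE M21 annotation of GRCm38. In the authors' deposited table the change of Gabra2 was -1.05, with an unadjusted p of 0.00431 and an adjusted p of 0.313.

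Gabra3 encodes the alpha 3 subunit and had normalized counts of 36.1, 4.93 and 42.8 at 6 months and 46.8, 48.5 and 53.2 at 18 months. The 18 month libraries were close together and above all libraries at 6 months, but the 6 month group was spread by replicate 2, whose value rests on about 3 reads. The log2 change was 1.25 ± 0.64 (SE), with an unadjusted p of 0.0711 and an adjusted p of 0.909 by limma, and it was 0.32 without that library. Without replicate 1 or replicate 3 at 6 months it was 1.65 and 1.77, with unadjusted p values of 0.0357 and 0.0229 by limma. Gabra4 and Gabra5, subunits of receptors outside the synapse in dentate granule cells and in CA1 pyramidal cells, had overlapping groups and log2 changes of 0.37 ± 0.31 and 0.64 ± 0.43 (SE). The change of Gabra4 was 0.06 without replicate 1 at 18 months and 0.69 without replicate 2 at 18 months, the latter with an unadjusted p of 0.0319 by limma. That of Gabra5 was 0.10 without replicate 2 at 6 months and 0.997 without replicate 1 at 6 months, the latter with an unadjusted p of 0.0480 by limma.

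Within each library, Gabra2 made up 24.4%, 32.5% and 33.9% of the summed normalized counts of Gabra2, Gabra3, Gabra4 and Gabra5 at 6 months, and 11.6%, 11.6% and 14.2% at 18 months. The groups did not overlap, with means of 30.3% ± 5.11 and 12.5% ± 1.50 (SD, n = 3 each). The two-sided exact permutation test of the 6 libraries gave p = 0.1, the smallest value 3 libraries against 3 can give, and 0.3 after Benjamini-Hochberg adjustment over the 9 ratios computed. These ratios were chosen after the values had been seen. Per kilobase of annotated transcript, Gabra2 and Gabra3 overlapped at 6 months, with normalized counts per kilobase of 8.97 to 15.7 and 1.81 to 15.7. At 18 months they did not overlap, with 3.88 to 7.36 for Gabra2 and 17.2 to 19.5 for Gabra3.

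The promoters of this pair are shown because among the 4 alpha subunits they had the lowest and the highest log2 change, and they differ in base composition. The sequences are RefSeq's 250 bases before the transcript start on GRCm38.p6, 5′ to 3′ on the gene's strand, with each CG pair in capitals. Gabra2 is on the minus strand at chr5:71095850-71096099 and Gabra3 on the minus strand at chrX:72656920-72657169.
Gabra2: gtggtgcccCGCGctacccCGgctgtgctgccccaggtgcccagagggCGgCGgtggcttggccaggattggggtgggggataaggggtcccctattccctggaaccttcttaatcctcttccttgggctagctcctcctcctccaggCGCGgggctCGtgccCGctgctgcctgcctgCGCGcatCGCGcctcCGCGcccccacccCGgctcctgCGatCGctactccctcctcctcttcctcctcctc
Gabra3: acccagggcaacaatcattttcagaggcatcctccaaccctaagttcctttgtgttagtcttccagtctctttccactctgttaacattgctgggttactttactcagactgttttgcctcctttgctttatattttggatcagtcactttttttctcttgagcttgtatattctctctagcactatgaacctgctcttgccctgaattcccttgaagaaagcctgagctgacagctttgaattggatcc
The Gabra2 window had 18 CG pairs and 70.0% G and C, and 21.7% of the 32851 promoter windows in the RefSeq table had at least as many CG pairs. The Gabra3 window had 0 CG pairs and 42.4% G and C, and 7.87% of all windows had none. The medians were 6 CG pairs and 52.4% for all windows and 12 CG pairs and 60.2% for the windows of the 25 of 28 genes with an entry. Gabrd, Abat and Calb2 had no entry.

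None of the beta, gamma and delta subunits on the list had an unadjusted p under 0.05 by limma. Gabrb1 and Gabrb2, beta subunits that form part of the GABA binding site, had means of 220 ± 54.9 and 90.6 ± 20.5 at 6 months and 231 ± 3.88 and 106 ± 17.2 at 18 months (SD, n = 3 each). Gabrd, the delta subunit that partners with alpha 4 outside the synapse, had a mean of 32.5 ± 6.97 and then 47.2 ± 7.42, with a log2 change of 0.53 ± 0.38 (SE) and groups that overlapped by 1 library on each side. The gamma subunit genes Gabrg1 and Gabrg3 were listed at 0 in replicate 1 at 18 months, where 3 reads would correspond to 5.385 units. Gabrg1 had 17.6, 16.1 and 38.5 at 6 months and 0, 23.3 and 33.3 at 18 months, and Gabrg3 had 40.7, 15.8 and 16.6 and then 0, 26.7 and 22.4. Their log2 changes of -1.30 and -1.42 depended on that library, and were 0.31 and 0.14 without it. Gabra4 and Gabrb1 lie head to head and overlap on opposite strands at their starts on chromosome 5, and the library protocol in the labels does not keep strand, so reads in that overlap cannot be assigned to one of them.

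The 2 GABA-B receptor subunits had overlapping groups. Gabbr1, which binds GABA, had a log2 change of 0.14 ± 0.19 and Gabbr2, which couples to the G protein, 0.12 ± 0.25 (SE). The 2 genes of the inhibitory postsynaptic scaffold both had lower means. Gphn, encoding gephyrin, which anchors GABA-A receptors, had 87.4, 72.5 and 56.5 and then 54.9, 46.2 and 59.9, overlapping through replicate 3 of each age, with a log2 change of -0.41 ± 0.30 (SE). Nlgn2, the adhesion protein neuroligin 2 of inhibitory synapses, had a log2 change of -0.36 ± 0.38 (SE).

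**Figure D2:**
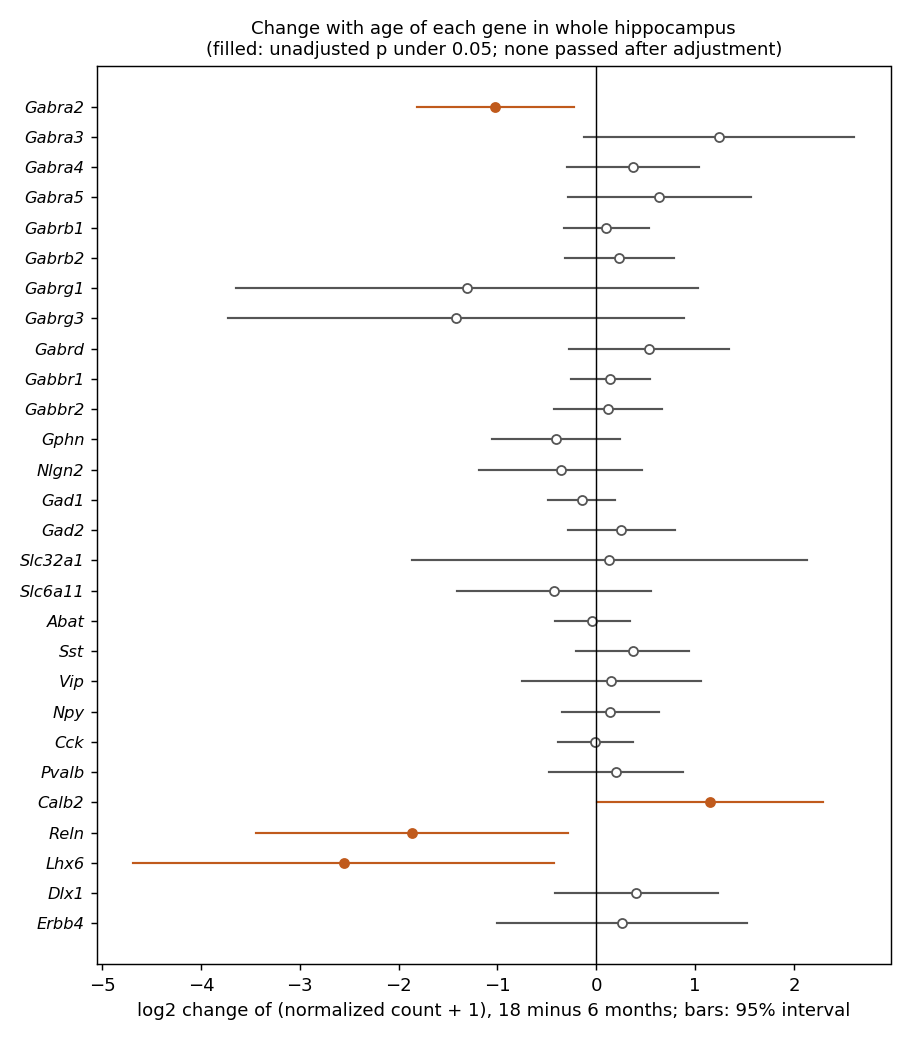
Log2 change of (normalized count + 1), 18 minus 6 months, for each of the 28 genes (points) with its 95% interval from limma (bars); filled orange points have an unadjusted p under 0.05. Gabra2, Reln and Lhx6 lie below 0 and Calb2 above it, and the intervals of Gad1, Cck and Abat are among the narrowest around 0.

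Of the 28 genes, Gad1 was measured with the smallest error. Gad1, the larger of the 2 enzymes that make GABA from glutamate, had normalized counts of 399, 385 and 423 at 6 months and 394, 307 and 395 at 18 months. The groups overlapped, and the log2 change was -0.15 ± 0.16 (SE) with a 95% interval of 0.713-fold to 1.14-fold. Gad2, the enzyme that is concentrated at nerve endings, had 101, 95.2 and 133 and then 97.2, 165 and 136, again overlapping, with a log2 change of 0.25 ± 0.25 (SE). Slc32a1, the transporter that fills synaptic vesicles with GABA, had 7.81, 7.21 and 3.17 and then 7.18, 18.1 and 1.55. It rests on about 24 reads at 6 months and 21 at 18 months over the 3 libraries, and its 95% interval ran from 0.275-fold to 4.37-fold, so a difference of several fold was not detectable at this depth. The sum of these 3 genes was 4.83%, 4.95% and 5.79% of the pan-neuronal marker sum at 6 months and 5.11%, 4.86% and 5.21% at 18 months, which overlapped (two-sided exact permutation p = 0.9, also 0.9 after adjustment over the 9 ratios). Gad1 has an annotated transcript on its opposite strand, Gad1os, whose reads cannot be separated from it.

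For the genes of GABA removal the groups overlapped as well. Slc6a11, a GABA transporter of astrocytes, had means of 36.5 ± 14.5 and 25.9 ± 4.88, and Abat, the enzyme that breaks GABA down, 248 ± 32.6 and 240 ± 19.9 (SD, n = 3 each). The 95% interval of Abat was 0.749-fold to 1.26-fold.

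The peptides that mark interneuron classes had overlapping groups. Sst, encoding somatostatin of dendrite-targeting interneurons, had normalized counts of 143, 114 and 157 at 6 months and 116, 257 and 186 at 18 months, with a log2 change of 0.37 ± 0.27 (SE). The change of Sst was 0.67 without replicate 1 at 18 months, with an unadjusted p of 0.0137 by limma, 0.10 without replicate 2 at 18 months and -0.03 without replicate 2 of both ages. Npy, encoding neuropeptide Y, had 85.3, 108 and 101 and then 113, 98.0 and 112, with a 95% interval of 0.784-fold to 1.55-fold. Vip, of interneurons that target other interneurons, had 23.2, 31.1 and 44.3 and then 44.8, 30.2 and 32.7. Cck, which excitatory neurons also express, had 625, 492 and 570 and then 447, 545 and 707, and its log2 change was -0.01 ± 0.18 (SE). Per kilobase of transcript Cck was the most abundant of the 28 genes in every library, with normalized counts per kilobase of 571 to 903 over both ages. Gad1, at 180 to 248, Sst, at 159 to 356, and Npy, at 151 to 200, came next, each with overlapping groups.

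A stretch of the Sst promoter is shown because it holds a complete 8-base cyclic AMP response element, TGACGTCA, through which Sst is known to respond to cyclic AMP. It lies on the minus strand of GRCm38.p6 at chr16:23890875-23890902 and its element is in capitals.
Sst: cctccttggcTGACGTCAgagagagagt
The element, searched as TGACGTCA, which reads the same on both strands, was in 1.55% of all promoter windows, and Sst was the 1 gene of the 25 with an entry to hold it. A match is a description of letters in this window.

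The 2 calcium-binding proteins differed in their values. Pvalb, encoding parvalbumin of fast-spiking interneurons, had normalized counts of 66.3, 71.0 and 38.5 at 6 months and 67.9, 61.5 and 66.3 at 18 months, which overlapped. Calb2, encoding calretinin, which also marks mossy cells and immature granule neurons, had 7.91, 31.2 and 34.1 and then 53.8, 41.6 and 45.9. Its libraries at 18 months were all above those at 6 months, with means of 24.4 ± 14.3 and 47.1 ± 6.18 (SD, n = 3 each). The log2 change was 1.15 ± 0.53 (SE), with an unadjusted p of 0.0493 and an adjusted p of 0.909 by limma, and it was 0.51 without replicate 1 at 6 months and 1.52 without replicate 2 of both ages. In the authors' deposited table Calb2 had an unadjusted p of 0.0532. By limma its unadjusted p was also over 0.05 with a pseudocount of 0.5 (0.0511), with TMM rescaling (0.0505) and without the mean trend (0.0936). Each of these settings gave 3 of the 28 genes an unadjusted p under 0.05 by limma, where the fit described gave 4.

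Reln and Lhx6 had the lowest ratios of the 18 month mean to the 6 month mean among the 28 genes, 21.7% and 23.6%. Reln encodes reelin, a secreted protein that in the adult hippocampus comes mainly from interneurons and from Cajal-Retzius cells of its outer layers. Its normalized counts were 12.2, 25.1 and 55.9 at 6 months and 3.82, 7.14 and 9.23 at 18 months. All libraries at 18 months were below all at 6 months, although the 6 month libraries were themselves widely spread. The reads of Reln, not scaled for depth, were about 127 at 6 months and 20 at 18 months. The means were 31.0 ± 22.4 and 6.73 ± 2.73 (SD, n = 3 each). The log2 change was -1.87 ± 0.74 (SE), with an unadjusted p of 0.0237 and an adjusted p of 0.877 by limma. Leaving out any 1 library gave log2 changes from -2.38 to -1.33, the smallest without replicate 3 at 6 months, where the unadjusted p was 0.167 by limma, and leaving out replicate 2 of both ages gave -1.96. The gene lies on the minus strand at chr5:21884454-22344702 (GENCODE M21, GRCm38). In the authors' deposited table the change of Reln was -2.14, with an unadjusted p of 0.00324 and an adjusted p of 0.283.

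Reln also has the promoter with the most CG pairs of those printed here, and it is shown for comparison with the pair above. The window is on the minus strand of GRCm38.p6 at chr5:22344706-22344955, with CG pairs in capitals.
Reln: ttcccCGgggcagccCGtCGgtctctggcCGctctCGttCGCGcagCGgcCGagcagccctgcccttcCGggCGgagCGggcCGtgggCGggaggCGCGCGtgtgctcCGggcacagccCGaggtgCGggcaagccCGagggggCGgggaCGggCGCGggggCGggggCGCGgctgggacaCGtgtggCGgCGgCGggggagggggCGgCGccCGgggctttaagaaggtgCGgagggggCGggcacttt
It had 37 CG pairs and 80.0% G and C, and 2.20% of all windows had at least as many CG pairs. Gabbr2, whose window is not printed, also had 37 CG pairs, and its log2 change was 0.12. Gphn, Slc6a11 and Dlx1 had 34, 25 and 22 CG pairs and log2 changes of -0.41, -0.43 and 0.41. A relation between CG pairs and the change with age was not tested. No methylation or binding was measured here, so the composition is a description.

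Lhx6, a transcription factor of the somatostatin and parvalbumin interneuron lineage, had normalized counts of 9.87, 23.4 and 24.7 at 6 months and 0, 12.1 and 1.55 at 18 months. The groups overlapped through replicate 1 at 6 months and replicate 2 at 18 months. The log2 change was -2.56 ± 0.99 (SE), with an unadjusted p of 0.0221 and an adjusted p of 0.877 by limma, and it ranged from -3.57 to -1.71 when 1 library was left out and was -3.39 without replicate 2 of both ages. Its unadjusted p was under 0.05 in 2 of the 6 leave-outs, and so was that of Calb2. About 71 reads stood behind the 6 month libraries and 12 behind the 18 month libraries, not scaled for depth. Dlx1, another transcription factor of interneurons, had 28.5, 52.1 and 27.4 and then 46.2, 45.9 and 45.8, and Erbb4, the neuregulin receptor of interneurons, 19.1, 44.9 and 11.1 and then 16.4, 37.0 and 27.8. Both overlapped between the ages. Dlx1 is crossed by the opposite-strand transcript Dlx1as.

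Set against Gad1 of the same library, Reln was 3.05, 6.52 and 13.2 per 100 units of Gad1 at 6 months and 0.971, 2.33 and 2.34 at 18 months. Calb2 was 1.98, 8.10 and 8.05 and then 13.7, 13.5 and 11.6 per 100 units of Gad1. Neither pair of groups overlapped. Each ratio gave a two-sided exact permutation p of 0.1, the smallest possible, and 0.3 after adjustment over the 9 ratios. Groups of 3 that separate completely always give that p, and Reln and Calb2 had already been seen to separate. These 2 ratios therefore add no separate evidence. Lhx6 per 100 units of Gad1 did overlap, with an exact permutation p of 0.2 and 0.36 after adjustment. The ratio of Sst to Pvalb was 2.61 ± 1.30 and 2.89 ± 1.23 (SD, n = 3 each).

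**Figure D3:**
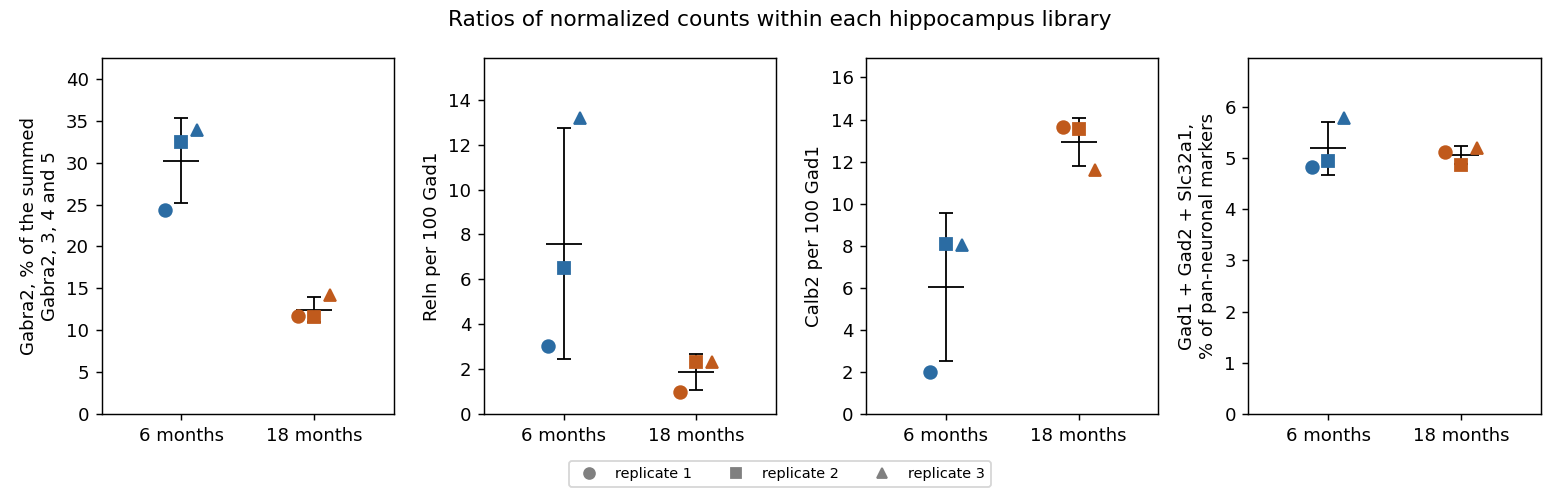
Ratios of normalized counts within each hippocampus library at 6 months (blue) and 18 months (orange), with mean and SD in black and axes starting at 0. The Gabra2 share of 4 alpha subunits and Reln per 100 Gad1 are lower in all 3 libraries at 18 months, Calb2 per 100 Gad1 is higher, and the share of Gad1, Gad2 and Slc32a1 in the pan-neuronal markers overlaps near 5.19% and 5.06% (means).

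Of 103 further genes of GABA signalling and of interneurons, 93 were in the hippocampus table and 86 passed the filter on low values. Limma called 0 of the 86 at an adjusted p under 0.05, and 3 higher and 4 lower at an unadjusted p under 0.05. Their median log2 change was -0.19, beside -0.04 for all tested genes. Among 23 partners of GABA receptors, 11 had a log2 change above 0 and 12 below 0. Hap1, which carries GABA-A receptors back to the surface, had means of 90.8 and 153 (log2 change 0.77 ± 0.24, SE) and was higher in all 3 libraries at 18 months. Mdga1, which binds neuroligin 2, had means of 16.6 and 47.5, and Kctd12b, an auxiliary subunit of GABA-B receptors, 5.46 and 0.411, the latter at about 1 read in all at 18 months. Their adjusted p values by limma were all 0.877.

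Of 13 genes of GABA transport and metabolism, 9 had a log2 change below 0. Glul, the glutamine synthetase of astrocytes, had means of 664 and 502, and Slc12a5, the neuronal chloride exporter KCC2, which sets the chloride gradient that GABA-A receptors use, 195 and 131, with adjusted p values of 0.890 by limma. The log2 change of Slc12a5 was -0.66 ± 0.28 (SE) and -0.28 without replicate 3 at 18 months. Of 28 further interneuron peptide and subtype genes, 22 had a log2 change below 0 and 6 above 0, with a median of -0.30 and none at an unadjusted p under 0.05 by limma. Across all tested genes 47.2% had a log2 change above 0, and for this list the share was 21.4%. Cnr1, the cannabinoid receptor of cholecystokinin interneurons, had means of 179 and 130, and Kit 123 and 90.2, whereas Cxcl14 had 77.2 and 112. Of 15 interneuron transcription factors 9 had a log2 change below 0. Sox6, of the same lineage as Lhx6, had means of 14.6 and 4.62, with an unadjusted p of 0.0594 and an adjusted p of 0.909 by limma. It rests on about 66 reads at 6 months and 13 at 18 months, and was listed at 0 in replicate 1 at 18 months. The 6 tested genes of the ErbB4 and reelin pathway were split 3 to 3, and Gabrr2, the 1 tested gene among the other GABA-A subunits, had means of 1.08 and 3.88.

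In microglia the 28 genes had few counts. Together they had 163 to 376 estimated counts per library out of totals of 8072855 to 14226478, or 15.5 to 34.8 CPM (counts scaled to library size). The 9 microglia markers summed to 39918 to 56990 CPM in the same libraries, and the 12 pan-neuronal markers to 3.68 to 27.7 CPM. The 12 genes Gabra2, Gabra4, Gabra5, Gabrd, Slc32a1, Slc6a11, Sst, Vip, Npy, Pvalb, Calb2 and Erbb4 had 0 counts in all 6 libraries, where 3 counts correspond to 0.204 to 0.374 CPM, an upper limit that covers counting error only. Another 9 genes, Gad1, Gad2, Reln and Lhx6 among them, never exceeded 12 counts in a library.

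Of the 28 genes, 3 passed the filter on low counts in microglia and none was called. Over the 10663 genes tested, 0 (0%) had an adjusted p under 0.05 by edgeR's quasi-likelihood test, and 590 (5.53%) had an unadjusted p under 0.05, none of the 3 among them. Groups that did not overlap were seen for 7.26% of tested genes in the higher and 6.18% in the lower direction, and for none of the 3. DESeq2 called 248 genes in all at an adjusted p under 0.05 and gave none of the 3 an unadjusted p under 0.05. Gphn, which besides its synaptic role serves molybdenum cofactor synthesis in all tissues, had 253, 112 and 128 counts at 3 months and 0, 112 and 55 at 24 months, with a log2 change of -1.33 ± 1.67 (SE). Gabbr1, the GABA-B subunit, had 42, 76 and 107 and then 6, 88 and 79 counts, with a log2 change of -0.22 ± 1.29 (SE). Nlgn2 had 2, 28 and 5 and then 84, 1 and 15 counts, with a log2 change of 1.40 ± 1.76 (SE). In each gene 1 library at 24 months, replicate 1, stood apart from the other two, and without it the log2 changes were -0.75, 0.30 and -0.78.

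The other genes with at least 20 counts owed them to 1 library each. Cck had 64 counts in replicate 1 at 24 months, 13 in replicate 2 at 3 months and 0 in the other 4 libraries. Camk2a, an abundant neuronal gene, was also highest in that 24 month library, at 117 CPM against 9.60 to 44.6 CPM in the other 5. It was lowest, at 9.60 CPM, in replicate 2 at 3 months, the other library with Cck counts. The other 7 excitatory neuron markers summed to 0.423 to 4.36 CPM over the 6 libraries and Slc17a7 was at 0 in all of them. The part of neuronal RNA in the Cck value was not tested. Abat had 60 counts in replicate 2 at 24 months and 0 to 6 elsewhere. Gabrb2 had 53 counts in replicate 1 at 3 months and 0 to 4 elsewhere. Dlx1 had 21 counts in replicate 2 at 3 months and 0 to 6 elsewhere. None of these 4 passed the filter, and their values do not separate the ages.

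**Figure D4:**
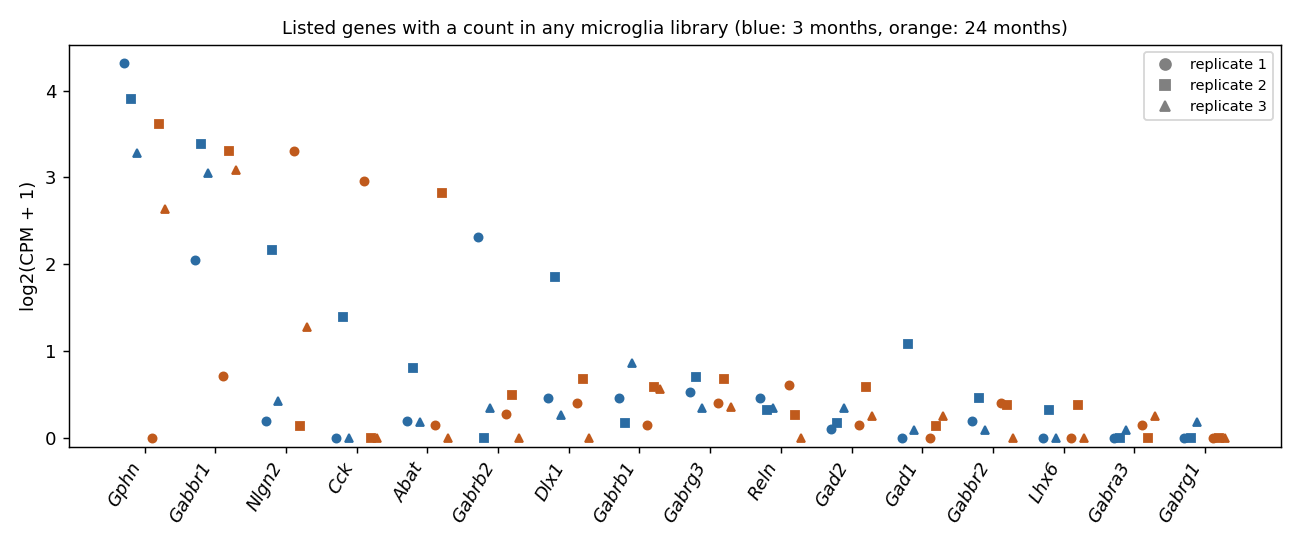
Log2(CPM + 1) of the 16 genes with a count in any microglia library, ordered by total count, at 3 months (blue) and 24 months (orange); each symbol is 1 library. Gphn and Gabbr1 reach the highest values, but in replicate 1 at 24 months Nlgn2 and Cck lie above them. Abat and Gabrb2 each stand out in 1 library.

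The filter left few genes of the wider pathway in microglia, 35 of the 101 in that table. EdgeR called 0 of them at an adjusted p under 0.05 and gave 4 a higher level and 0 a lower level at an unadjusted p under 0.05, where 3.52% and 2.02% of all tested genes met that threshold. Kctd12, an auxiliary subunit of GABA-B receptors, had means of 98.1 and 214 CPM with an adjusted p of 0.646. The transcription factor Maf, which is shared by interneurons and macrophages, had 140 and 210 CPM with an adjusted p of 0.868 by edgeR. Zeb2 had 52.4 and 144 CPM and Plcl1, a partner of GABA-A receptors, 0.891 and 11.9 CPM, both with an adjusted p of 0.875 by edgeR.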

How the data were processed

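RNA was measured by sequencing of amplified cDNA, made with an oligo-dT primer and template switching and cut with the Nextera XT kit, per the labels' protocols. The submitters' processing notes name kallisto, DESeq2 and DESeq and the builds GRCm39 and mm10, with no role or version. For microglia the deposited table holds estimated counts, TPM and average transcript lengths per gene, per the file headers. For the hippocampus the deposited values are normalized counts, a signal already scaled by the authors, with their log2 fold change, test statistic (a score) and p-values, and no raw counts were used. Rows with no gene name were left out (0.0233% to 0.0335% of hippocampus signal and 0.0546% to 0.0771% of microglia counts).

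The hippocampus was tested with limma 3.58.1 (moderated test with a mean trend) on log2(normalized count + 1), over genes with at least 1 unit in at least 3 samples. Changes are on that scale and are 18 minus 6 months. The pseudocount shrinks the change of low genes, but for genes at 0 in a library, such as Gabrg1, Gabrg3 and Lhx6, the log scale gives a larger change than the means. The deposited log2 fold changes run the other way and were turned round. Microglia estimated counts were rounded and tested with edgeR 4.0.16 (quasi-likelihood, TMM, filterByExpr) in R 4.3.3, with DESeq2 1.42.0 as an alternative. Tests were two-sided, with Benjamini-Hochberg adjustment over all tested genes at 0.05. Both were also run on simulated data, with a fixed spread for all genes and changes placed only in genes with higher values. That run does not bear on genes with low values. Other alternatives were the pseudocount, filters, scaling, a length offset, a replicate block and each replicate left out. CPM were computed from TMM-scaled totals. Levels per kilobase use the median length of GENCODE M21 coding transcripts, not isoforms measured here.

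The genes and lists were chosen with earlier results of these data known. Values per library are given for the interneuron and GABA synthesis genes, for genes with an unadjusted p under 0.05 or non-overlapping groups, and in microglia for genes that passed the filter or reached 20 counts; of each further list up to 3 genes with the smallest p are named. Others were named after their values were seen. Some genes of this family are not reported here. The 95% intervals are limma's and come from the spread between libraries; the limit of 3 counts covers counting error only.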

Additional observations from a re-analysis of the deposited data

How the results depend on the processing

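In the hippocampus the number of genes called over the whole table was 0 in the fit described and under both other pseudocounts, both other filters, both rescalings and without replicate 2 of both ages, and it was 1 without the mean trend in limma. Leaving out 1 library at a time gave 0 to 1 called genes, 2 to 5 of the 28 genes at an unadjusted p under 0.05, and a median log2 change of the 28 genes from -0.0045 to 0.15. That median was -0.0045 without replicate 3 at 6 months and 0.0186 without replicate 2 of both ages, an alternative chosen after seeing the data. In microglia DESeq2 called 248 genes, and leaving out 1 library at a time with edgeR gave 0 to 55 called genes, the latter without replicate 3 at 24 months. None of the 28 genes had an unadjusted p under 0.05 in microglia under any of these, and the median of the 3 tested genes, -0.22, ranged from -0.75 to 0.63. The cause of these differences was not tested. Slc32a1 (about 24 and 21 reads at 6 and 18 months), Lhx6 (71 and 12), Reln (127 and 20) and Erbb4 (80 and 75) are among the genes that rest on few reads, and the 2 shallowest hippocampus libraries hold the values of 0 or of about 3 reads that decide Gabra3, Gabrg1 and Gabrg3.

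The labels number the replicates 1 to 3 at each age, but libraries of the same number did not deviate together, with correlations over genes of 0.0117, 0.00941 and 0.0142 in the hippocampus and 0.0649, 0.0117 and -0.0270 in microglia, and not every library correlated best with its own number. With the replicate number as a block, 0 genes were called in either tissue, 5 of the 28 genes had an unadjusted p under 0.05 in the hippocampus, with a median log2 change of 0.14, and 0 in microglia, with a median of -0.73.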
